A study of Homo sapiens with 4 samples.

Results

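The genes described here copy DNA and repair it: they recognise and open replication origins, synthesise and join the new strands, supply nucleotides, drive entry into S phase, and sense or mend damage. A list of 57 such genes was drawn up by name. Every probe set of the array whose single annotated symbol was a listed gene was taken, which gave 54 genes and 114 probe sets out of 19775 genes and 54675 probe sets, and the other 3 genes were not analysed here. RNA came from 2 established human lines, MyLa, a line of mycosis fungoides, and HH, a line of cutaneous T-cell lymphoma. All cultures were kept for 40 h in medium with 0.1% serum. The 4 groups were MyLa with 5 ng/ml of the cytokine IL-32γ, MyLa without it (control), HH with 5 ng/ml IL-32γ, and HH without it (control), with 1 array each. Each line is a single line and stands for no wider group of patients or tumours.

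DNA replication starts where the origin recognition complex, CDC6 and CDT1 load the MCM helicase onto chromatin. CDC45 and the GINS complex then activate the helicase, and polymerases alpha, delta and epsilon synthesise DNA with the sliding clamp PCNA and its loader RFC. Cyclin E and the E2F transcription factors switch these genes on at the border of G1 and S phase, and ATM, ATR, CHEK1 and CHEK2 hold the cycle when DNA is damaged. In T cell lymphomas, as in other dividing cells, the transcripts of most of these genes are most abundant in cells that are cycling.

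Values are the authors' GCRMA expression values on a log2 scale, and all levels and differences below are on that scale unless a fold is given. Values under 5 were treated as not measured, and 23433 to 23686 probe sets per array reached it. Of the 114 probe sets, 98 reached 5 on at least 2 arrays and 16 lay under 5 on every array. All 54 genes had a probe set that passed, and 52 passed on all 4 arrays. CCNE2 and ESCO2 fell short on the MyLa control array only, at 4.97 and 4.34. As a check of the lines' T cell label, 7 of 14 probed T cell markers reached 5 on both MyLa arrays and 10 of 14 on both HH arrays. CD3D, CD3G, CD247, CD2, PTPRC, ZAP70 and TRBC1 were measured in both lines, while CD3E, CD4 and CD5 were under 5 in MyLa, and CD7, CD28, CCR4 and LCK were under 5 on all 4 arrays. No B cell marker of 5 and no endothelial marker of 4 reached 5. In MyLa the fibroblast list had 2 of 6 genes measured, COL1A1 and COL3A1, with COL1A2, DCN, LUM and PDGFRB under 5, and the myeloid list 1 of 6, ITGAM, with CD14, LYZ and CSF1R under 5. In HH, COL1A1 alone of the fibroblast list was measured, on the IL-32γ array only, and no myeloid gene was. In both lines KRT10 was the only keratinocyte gene of 5 measured.

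The promoters of many of these genes carry sites for E2F factors. Shown are 5 windows, taken only from those with a match to the motifs below, so they do not stand for the promoters without one. They were chosen because their genes lie at different places in the results: E2F1 and POLE were lower in MyLa, CDT1 was higher with IL-32γ in MyLa, and MCM6 and PCNA differed little between the lines. The sequences are the 250 bases before the annotated gene start, from RefSeq on build GRCh38.p14, and each is written 5′ to 3′ on the gene's own strand. Capitals mark the letters TTTGGCGC, TTTCCCGC, TTTGCCGC or TTTCGCGC on either strand. The windows are chr20:33686386-33686635 on the minus strand for E2F1, chr12:132687343-132687592 on the minus strand for POLE, chr16:88803539-88803788 on the plus strand for CDT1, chr2:135876444-135876693 on the minus strand for MCM6 and chr20:5126623-5126872 on the minus strand for PCNA.
E2F1: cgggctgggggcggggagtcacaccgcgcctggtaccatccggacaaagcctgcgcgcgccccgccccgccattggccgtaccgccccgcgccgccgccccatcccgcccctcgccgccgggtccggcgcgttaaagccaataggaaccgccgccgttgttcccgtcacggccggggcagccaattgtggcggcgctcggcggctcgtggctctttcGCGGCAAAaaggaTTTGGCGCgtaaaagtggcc
POLE: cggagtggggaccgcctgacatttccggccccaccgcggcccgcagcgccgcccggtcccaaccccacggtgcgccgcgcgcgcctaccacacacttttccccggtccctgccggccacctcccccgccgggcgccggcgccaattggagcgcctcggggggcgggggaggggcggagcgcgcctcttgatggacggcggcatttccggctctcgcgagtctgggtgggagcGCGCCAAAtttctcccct
CDT1: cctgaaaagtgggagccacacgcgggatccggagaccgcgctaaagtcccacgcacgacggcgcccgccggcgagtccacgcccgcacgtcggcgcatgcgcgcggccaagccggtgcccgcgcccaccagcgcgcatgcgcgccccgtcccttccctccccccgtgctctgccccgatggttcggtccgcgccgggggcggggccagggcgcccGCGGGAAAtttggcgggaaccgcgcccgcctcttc
MCM6: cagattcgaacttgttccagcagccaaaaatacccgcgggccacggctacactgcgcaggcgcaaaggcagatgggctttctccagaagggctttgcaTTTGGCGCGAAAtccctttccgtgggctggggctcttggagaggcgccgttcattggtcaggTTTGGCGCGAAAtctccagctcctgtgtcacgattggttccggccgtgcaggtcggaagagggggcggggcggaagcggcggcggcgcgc
PCNA: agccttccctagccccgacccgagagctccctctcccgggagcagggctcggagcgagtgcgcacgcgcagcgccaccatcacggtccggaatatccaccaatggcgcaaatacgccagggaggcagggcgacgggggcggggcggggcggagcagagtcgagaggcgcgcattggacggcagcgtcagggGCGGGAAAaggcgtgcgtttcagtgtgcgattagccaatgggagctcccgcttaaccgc
In E2F1 the 2 matches began 33 and 20 bases before the gene start, and the single matches of POLE, CDT1 and PCNA began 18, 35 and 59 bases before it. MCM6 had 4 matches in 2 blocks, since in each block a forward match overlapped a match on the other strand. Of the 44 genes with a promoter in the table, 13 (29.5%) held at least 1 of these motifs, against 928 (3.40%) of the 27305 genes in the table and 2.79% of its 35116 windows. A match is a run of letters and not a measured binding site. The 13 genes with a match had a median difference between MyLa and HH of -0.57 and 2 of them, E2F1 and POLE, passed the test below as lower in MyLa, against a median of -0.71 and 8 of 31 for those without. Among all tested genes, 16.8% were lower in that test. The 10 analysed genes with no promoter in the table are in neither group, and the groups were not tested against each other.

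Most replication and repair genes read lower in MyLa than in HH. With a limma adjusted p under 0.05 and a difference of at least 2-fold, 17 of the 54 (31.5%) were lower in MyLa and 2 were higher, against 16.8% lower and 19.0% higher among all 11010 tested genes. Their median difference was -0.75, against 0.03 over all tested genes, and 48 of the 54 were negative. Both MyLa arrays lay below both HH arrays for 44 of them (40.7% of all tested genes) and above for 5 (42.1% of all tested genes), and CDC6, POLA2, POLD1, FEN1 and FANCG overlapped. By the adjusted p alone, 28 were lower and 4 higher, against 27.1% and 29.3% of all tested genes. The 2 arrays of a line, 1 per condition, stood for its replicates, so the spread in this test includes the response to IL-32γ, and nothing in the labels makes the arrays separate cultures of 1 condition. In RNA of a whole culture, fewer cells that express a gene and less RNA of it per cell cannot be told apart.

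**Figure D1:**
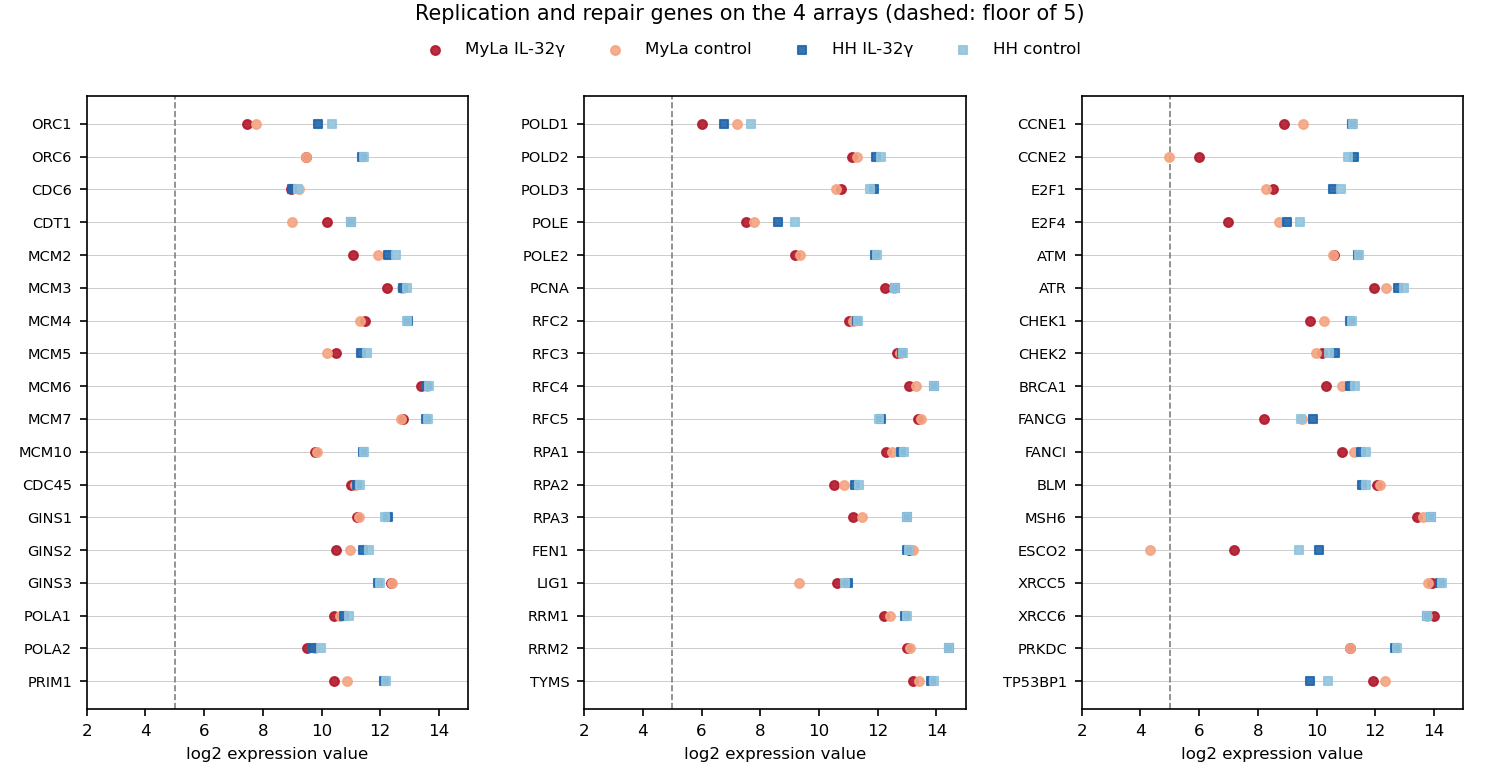
The log2 expression value (x axis) of each of the 54 genes on the 4 arrays, with circles for MyLa and squares for HH and the level of 5 dashed. The circles lie left of the squares for 44 genes, most widely for CCNE2 and ESCO2, and right of them for 5, among them RFC5 and TP53BP1.

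The count of lower genes was 9 without the HH IL-32γ array, 12 without the HH control array and 11 without a floor or filter, when 19775 genes were tested. The count of higher genes was 1, RFC5, without the MyLa IL-32γ array, without the MyLa control array, without the HH IL-32γ array and without a floor. It was 1, TP53BP1, when each gene was the average of its probe sets. No share of all tested genes is given here for these runs, so it is not known whether calls changed alike over all genes. Without the HH IL-32γ array, MCM5 (-1.21), PRIM1 (-1.56), POLD3 (-1.07), POLE (-1.52), RPA3 (-1.68), CCNE1 (-2.03), CHEK1 (-1.19) and ESCO2 (-3.65) kept their direction but not their call. Without the HH control array, MCM5 (-1.005), PRIM1 (-1.48), POLE (-0.93), CCNE1 (-2.01), CHEK1 (-1.14) and ESCO2 (-4.33) lost it. POLE (-1.08) and CHEK1 (-0.93) lost it without the MyLa IL-32γ array, and MCM5 (-0.96), POLE (-1.36) and ESCO2 (-2.56) without the MyLa control array. On the control arrays alone, with no test, 18 genes were 2-fold or more lower and 2 higher. The share of all tested genes on those arrays is not given here, so these counts have no background beside them. The control probe set at the 5′ end of ACTB read 11.81 and 10.12 on the MyLa IL-32γ and control arrays, against 13.58 and 12.69 on the HH IL-32γ and control arrays, a difference of -2.16, while its 3′ partner differed by -0.15. The 5′ GAPDH probe set differed by -0.40 and its 3′ partner by -0.13. The part of RNA integrity or of the 5′ signal in the differences between lines was not tested.

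Among the regulators of S phase entry, 3 of 4 were lower in MyLa, and the median of the 4 was -2.16. CCNE2, a cyclin E that activates CDK2, read 5.98 on the MyLa IL-32γ array and 4.97 on the MyLa control array, against 11.29 and 11.06 on the HH IL-32γ and control arrays. With the value under 5 raised to 5 it was lower by 5.68, or 51.4-fold, the widest gap of the 54 genes. The limma fit took the values as deposited and gave -5.70 for this probe set (SE 0.387, adjusted p = 0.00101). Its other probe set lay under 5 on both MyLa arrays, at 2.14 and 2.13, against 8.17 and 7.41 on the HH arrays. CCNE1, the other cyclin E, read 8.88 and 9.53 on the MyLa IL-32γ and control arrays, against 11.21 and 11.23 on those of HH, a difference of -2.02 (SE 0.256, adjusted p = 0.00555 in limma). E2F1, an activator of S phase genes, read 8.53 and 8.28 in MyLa with IL-32γ and control, against 10.57 and 10.84 in HH, a difference of -2.29 (SE 0.164, adjusted p = 0.00116 in limma). The lines did not overlap for any of these genes. E2F4, which represses such genes in resting cells, differed by -1.36 on the probe set that stood for it and did not pass (SE 0.656, adjusted p = 0.153 in limma). Its MyLa arrays were at 6.97 and 8.73 and its HH arrays at 9.00 and 9.42. On the other E2F4 probe set the values were 7.39 and 8.11 in MyLa, against 8.81 and 8.93 in HH. That difference of -1.12 passed both thresholds in the limma fit over all probe sets (adjusted p = 0.0406).

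Of the origin recognition and loading genes, 2 of 4 were lower, and the median of the 4 was -1.67. ORC1, a subunit of the origin recognition complex that binds ATP, read 7.46 and 7.77 on the MyLa IL-32γ and control arrays, against 9.88 and 10.35 on the HH arrays, and was lower by 2.50 (SE 0.227, adjusted p = 0.00224 in limma). ORC6, another subunit, read 9.47 and 9.48 in MyLa, against 11.39 and 11.45 in HH, a difference of -1.95 (SE 0.101, adjusted p = 0.000484 in limma). Neither loading factor passed on the probe set that stood for it. CDT1, which brings the helicase to origins, differed by -1.40 (adjusted p = 0.0594 in limma). Its other probe set read 7.55 and 6.86 in MyLa, against 9.30 and 9.31 in HH, more than 2-fold lower and past the threshold in the limma fit over all probe sets (adjusted p = 0.00715). CDC6, the ATPase that works with it, read 8.97 and 9.23 in MyLa, against 9.00 and 9.21 in HH. A second CDC6 probe set read 8.57 and 8.33 in MyLa, against 8.95 and 9.02 in HH. It differed by -0.54, short of 2-fold (adjusted p = 0.0451 in the limma fit over all probe sets). On the probe sets that stood for them, the 4 genes thus ran from one whose lines overlapped to one more than 2 log2 units apart.

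Every one of the 6 helicase subunits MCM2 to MCM7 had both MyLa arrays below both HH arrays, and 2 passed at 2-fold, MCM4 and MCM5. MCM4 read 11.47 and 11.31 in MyLa with IL-32γ and control, against 12.95 and 12.90 in HH, a difference of -1.53 (adjusted p = 0.00135 in limma). Its subunit partner MCM5 differed by -1.11 (adjusted p = 0.00825 in limma). MCM7 differed by -0.86 and passed the adjusted p but not the fold, and MCM6 was the closest of the 6, at -0.14. Their second probe sets differed by -1.18 for MCM7 and -0.49 for MCM6. In the limma fit over all probe sets the adjusted p was 0.00616 and 0.044, so that of MCM7 passed both thresholds. Of the 5 genes of helicase activation, MCM10, a scaffold of the activated helicase, was the one that passed on the probe set that stood for it, at -1.62 (SE 0.101, adjusted p = 0.000793 in limma). It read 9.79 and 9.84 in MyLa, against 11.43 and 11.45 in HH. The 3 listed GINS subunits went different ways: GINS1 at -0.98 and GINS2 at -0.78 were below 0, whereas GINS3 was above it at 0.43. None reached 2-fold on the probe set that stood for it. A second GINS2 probe set read 4.77 and 4.73 in MyLa, both under 5, against 6.04 and 6.015 in HH. With values under 5 raised to 5 it differed by -1.03, and it passed both thresholds in the limma fit over all probe sets (adjusted p = 0.00287).

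Among the polymerases and primase, 4 of 8 were lower and none was higher, with a median of -0.97. POLE2, a subunit of the leading-strand polymerase epsilon, had the widest gap: 9.19 and 9.36 on the MyLa IL-32γ and control arrays, against 11.91 and 11.97 on the HH arrays, a difference of -2.66 (SE 0.120, adjusted p = 0.000318 in limma). The catalytic subunit of the same polymerase, POLE, differed by -1.22 (adjusted p = 0.0213 in limma). PRIM1, the primase that lays down RNA primers, differed by -1.52 (adjusted p = 0.00551 in limma), and POLD3, of the lagging-strand polymerase delta, by -1.14 (adjusted p = 0.00363 in limma). Both subunits of polymerase alpha, which extends the primers, were within 1 log2 unit of HH, POLA1 at -0.33 and POLA2 at -0.19.

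Of the 5 genes of the clamp and its loader, none was called lower and 1 was higher, with a median of -0.19. PCNA, the sliding clamp, read 12.24 and 12.56 on the MyLa IL-32γ and control arrays, against 12.59 and 12.58 on the HH arrays, a difference of -0.19 (adjusted p = 0.35). RFC5, a subunit of the clamp loader, was called higher in MyLa at 13.36 and 13.46, against 12.11 and 12.05 in HH, a difference of 1.33 (SE 0.108, adjusted p = 0.00164 in limma). RFC4, another loader subunit, differed by -0.71, past the adjusted p (0.0146 in limma) and short of 2-fold. The call of RFC5 rested on 1 probe set. The other 2 probe sets of RFC5 differed by -0.75 and -0.08, and the mean of the 3 gave 0.17 (adjusted p = 0.254 in limma).

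All 3 subunits of replication protein A, which coats single-stranded DNA, passed the adjusted p on the lower side, and RPA3 also passed 2-fold. RPA3 read 11.16 and 11.46 on the MyLa IL-32γ and control arrays, against 13.01 and 12.99 on those of HH, a difference of -1.69 (SE 0.147, adjusted p = 0.00199 in limma). RPA1 differed by -0.46 and RPA2 by -0.61. The nucleotide supply genes had the same counts, with 3 of 3 past the adjusted p and 1 past 2-fold. That was RRM2, the regulated subunit of ribonucleotide reductase, at 13.00 and 13.09 in MyLa, against 14.43 and 14.43 in HH, a difference of -1.38 (adjusted p = 0.00135 in limma). RRM1, its large subunit, differed by -0.66, and TYMS, which makes thymidylate, by -0.57. A second RRM1 probe set differed by -1.27, past both thresholds in the limma fit over all probe sets (adjusted p = 0.0413). Neither gene of Okazaki fragment joining passed: FEN1, the flap nuclease, differed by 0.11 and LIG1, the ligase, by -0.97 (adjusted p = 0.16).

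In the damage response, the checkpoint kinases had a median of -0.79 and 1 of 4 lower, CHEK1, the kinase downstream of ATR, at -1.17 (adjusted p = 0.0124 in limma). ATM differed by -0.85 and ATR by -0.73, both past the adjusted p and short of 2-fold, and CHEK2 by -0.45 (adjusted p = 0.0545). No analysed gene of homologous recombination and the Fanconi pathway (4 of the 7 listed) reached 2-fold: BRCA1 differed by -0.63, FANCG by -0.81, FANCI by -0.52 and the helicase BLM by 0.49. The mismatch repair gene MSH6 differed by -0.39 (adjusted p = 0.0612). ESCO2, which acetylates cohesin during S phase, read 7.19 on the MyLa IL-32γ array and 4.34 on the MyLa control array, against 10.09 and 9.42 on the HH IL-32γ and control arrays. With the value under 5 raised to 5 it was lower by 3.66. The limma fit took the values as deposited and gave -3.99 for ESCO2 (SE 1.06, adjusted p = 0.0393). Its call was lost without a floor and without any 1 of the MyLa control, HH IL-32γ or HH control arrays.

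The end-joining genes split in both directions. PRKDC, the catalytic subunit of the DNA-dependent protein kinase, read 11.14 and 11.14 on the MyLa IL-32γ and control arrays, against 12.66 and 12.74 on the HH arrays, a difference of -1.56 (SE 0.104, adjusted p = 0.000952 in limma). TP53BP1, which shields broken ends from resection, was higher: 11.91 and 12.33 in MyLa, against 9.79 and 10.38 in HH, a difference of 2.04 (SE 0.280, adjusted p = 0.00692 in limma). Its other measured probe set was also higher, by 1.81. The Ku subunits, which bind the ends, were within 2-fold of HH on the probe sets that stood for them, XRCC5 at -0.37 and XRCC6 at 0.12. Further probe sets of XRCC5 differed by -0.85 (adjusted p = 0.00861 in the limma fit over all probe sets) and -0.41.

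**Figure D2:**
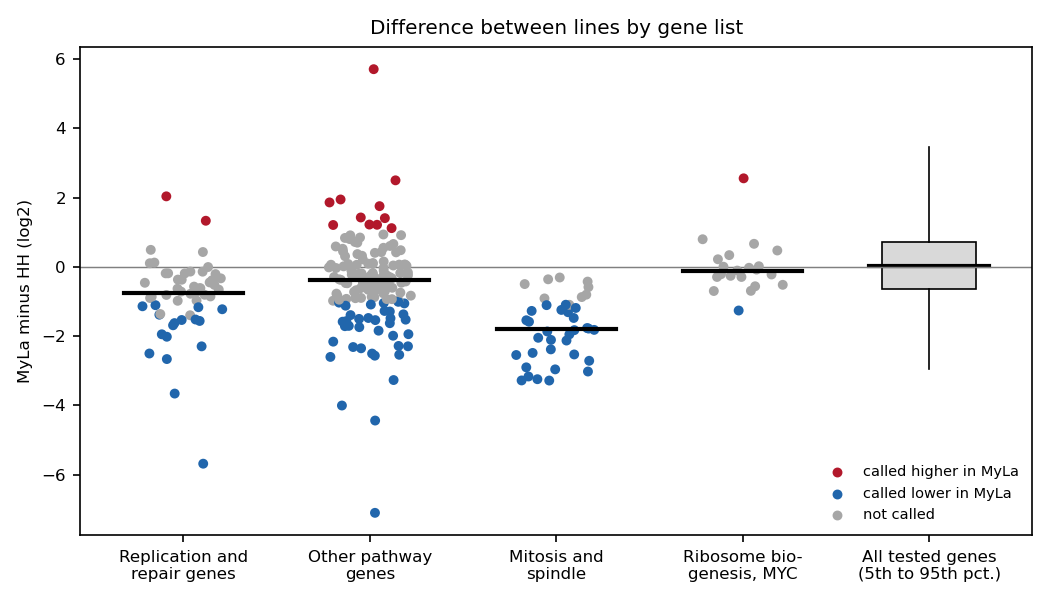
The difference between MyLa and HH (y axis, log2, MyLa minus HH) of each tested gene of 4 lists, with points coloured by call and bars at the medians, beside a box of the 25th to 75th percentile of all tested genes with whiskers from the 5th to the 95th. The median of the replication and repair genes, -0.75, lies below the 0.03 of all genes and above the -1.78 of the mitosis genes.

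A wider list of 164 other genes of the same pathways had 153 on the array and 152 tested. Of these, 37 (24.3%) were lower in MyLa and 11 (7.24%) higher, against 16.8% lower and 19.0% higher among all tested genes, with a median of -0.38 against 0.03. FANCF, an adaptor of the Fanconi core complex, lay under 5 on both MyLa arrays, at 2.36 and 2.16, against 12.10 and 12.10 on the HH arrays, so it was lower by at least 137-fold. E2F8, a repressor of the E2F family, read 4.11 and 4.16 in MyLa, against 9.51 and 9.37 in HH, lower by at least 21.7-fold, and E2F5, another repressor, read 4.02 and 3.79 in MyLa, against 8.91 and 9.10 in HH. CDKN1A, which inhibits cyclin-dependent kinases, was higher by 5.71 at 14.27 and 14.25 in MyLa, against 8.33 and 8.77 in HH. In limma the adjusted p was 2.00e-05 for FANCF, 4.19e-05 for E2F8, 9.45e-05 for E2F5 and 0.000128 for CDKN1A. For FANCF, E2F8 and E2F5 the fit took the MyLa values as deposited, although they lay under 5. The 39 further replication genes had 15 lower and 0 higher (21 lower by the adjusted p alone), while nucleotide excision repair, which removes bulky lesions, had 0 lower (2 by the adjusted p alone) and 4 higher of 13, beside the same 16.8% and 19.0% of all tested genes.

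As a comparison, 30 of 39 tested mitosis and spindle genes (76.9%) were lower in MyLa and 0 higher, with a median of -1.78, and both MyLa arrays lay below both HH arrays for all 39. Ribosome biogenesis and MYC genes had 1 lower and 1 higher of 21, with a median of -0.11. The replication and repair genes, at 31.5% lower, stood between these lists. The lists were chosen with results of these data known, so their order is a description.

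The differences between lines also varied by chromosome. All 4 analysed genes on chromosome 8, CCNE2, ESCO2, MCM4 and PRKDC, were lower in MyLa, on a chromosome where 32.2% of 401 tested genes were lower and the median was -0.48. TP53BP1 lies on chromosome 15, where 47.0% of the tested genes were higher and the median was 0.93, and of the other 2 analysed genes there BLM differed by 0.49 and FANCI by -0.52. The medians of the other 21 chromosomes ran from -0.10 to 0.41. Outside chromosomes 8 and 15, 13 of 47 replication and repair genes (27.7%) were lower and 1 was higher, with a median of -0.73, against 16.6% lower and a median of 0.02 among all 10258 tested genes there. Copy number was not measured here, and its part in these differences was not tested.

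**Figure D3:**
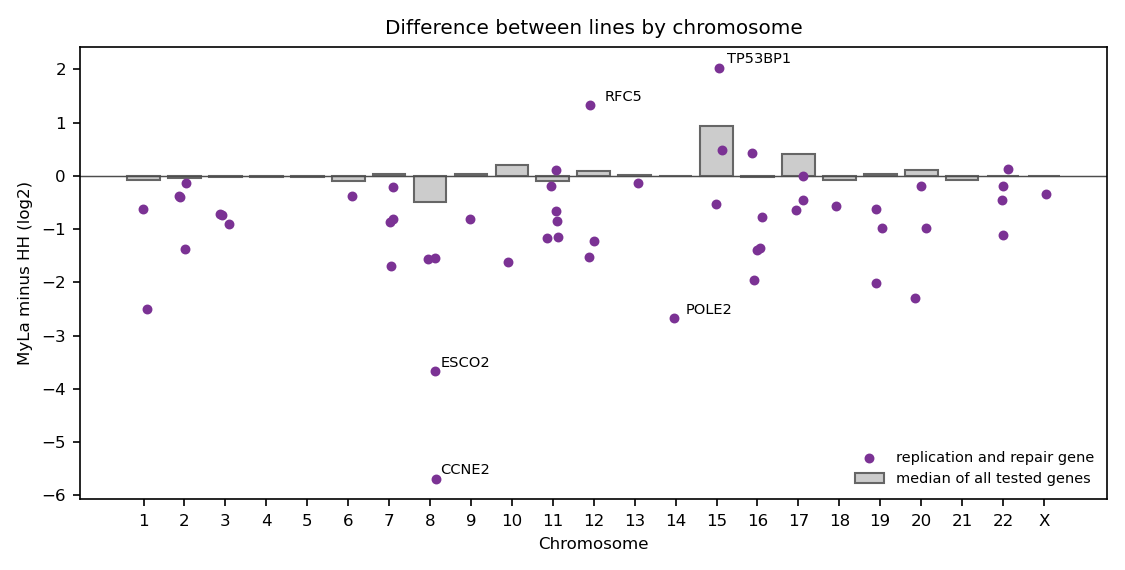
The difference between MyLa and HH (y axis, log2, MyLa minus HH) of each replication and repair gene by chromosome (x axis), with bars for the median of all tested genes there. The 4 genes on chromosome 8, including CCNE2 and ESCO2, lie below its median of -0.48, and TP53BP1 lies above the chromosome 15 median of 0.93.

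With IL-32γ, few of these genes moved by 1.5-fold in MyLa. The IL-32γ array was higher than the control array by that much for 4 of 54 genes and lower for 5, against 7.77% higher and 7.65% lower among all 10497 measured genes, shares close to the 7.41% and 9.26% found here. The other 45 genes lay within 1.5-fold. Their median difference was -0.18, against -0.07 over all measured genes, with 40 negative and 14 positive. Since each condition had a single array, these values carry no test and no replicate check.

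ESCO2 was the gene furthest up in MyLa, at 7.19 with IL-32γ and 4.34 in the control, higher by at least 4.57-fold. Its other measured probe set read 6.18 with IL-32γ and 6.03 in the control. LIG1, the ligase that seals Okazaki fragments, read 10.61 with IL-32γ and 9.30 in the control, 2.47-fold higher. The licensing factor CDT1 read 10.19 with IL-32γ and 9.00 in the control, a difference of 1.19, and its other probe set differed by 0.69. CCNE2 read 5.98 with IL-32γ and 4.97 in the control, so the difference is at least 0.98. When averaged over all their probe sets, ESCO2 and CCNE2 lay under 5 on both MyLa arrays and were not counted, and CCNE2 was not counted at a floor of 6. CDT1 was the single gene of these 4 with a second measured probe set past 1.5-fold.

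Of the 5 genes lower with IL-32γ in MyLa, E2F4 stood furthest down, at 6.97 with IL-32γ and 8.73 in the control, a difference of -1.75, and its other probe set differed by -0.72. FANCG, a Fanconi core protein, read 8.23 with IL-32γ and 9.49 in the control, a difference of -1.26. POLD1, the catalytic subunit of polymerase delta, read 6.01 with IL-32γ and 7.20 in the control, a difference of -1.19. The helicase subunit MCM2 read 11.07 with IL-32γ and 11.92 in the control, a difference of -0.85. CCNE1 read 8.88 with IL-32γ and 9.53 in the control, a difference of -0.66, which became -0.33 as the mean of its probe sets. At the 5′ ends of the control genes, ACTB differed by 1.69 and GAPDH by 0.68 between these arrays, and their part in these differences was not tested.

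In HH the differences were smaller. The IL-32γ array was higher by 1.5-fold for 1 of 54 genes and lower for 3, against 1.14% higher and 4.46% lower among all 10307 measured genes, and 50 lay within 1.5-fold. The median was -0.06, against -0.07 over all measured genes. ESCO2 read 10.09 with IL-32γ and 9.42 in the control, a difference of 0.68, while its other measured probe set differed by 0.15. POLD1 read 6.76 with IL-32γ and 7.69 in the control, a difference of -0.93. POLE and TP53BP1 stood just past the threshold, POLE at 8.59 with IL-32γ and 9.18 in the control (-0.60) and TP53BP1 at 9.79 with IL-32γ and 10.38 in the control (-0.59). The second measured probe set of TP53BP1 differed by 0.17, and after quantile normalisation POLE stood at -0.56 and TP53BP1 at -0.57, both within 1.5-fold. The 5′ signal of ACTB differed by 0.89 between the HH arrays, and its part was not tested.

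POLD1, lower, and ESCO2, higher, passed 1.5-fold in MyLa and in HH alike. At any size, 33 of the 52 genes measured on all 4 arrays were lower with IL-32γ in both lines and 6 were higher in both, against 44.2% lower and 19.7% higher among all 9324 genes so measured. Across the 2 lines, with the line as a block in limma and 1 residual degree of freedom, 0 of the 54 genes and 0 of all 11010 (0.0%) passed an adjusted p of 0.05. At an unadjusted p under 0.05, 4 of the 54 were lower and 0 higher, against 7.87% lower and 1.62% higher among all tested genes. These were POLD1 at -1.06 (SE 0.131, unadjusted p = 0.00314, adjusted p = 0.522 in limma), TP53BP1 at -0.51, POLE at -0.44 and ORC1 at -0.39. The fit picks genes whose differences are alike in the 2 lines. That each of these was lower in both lines therefore follows from how they were picked.

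**Figure D4:**
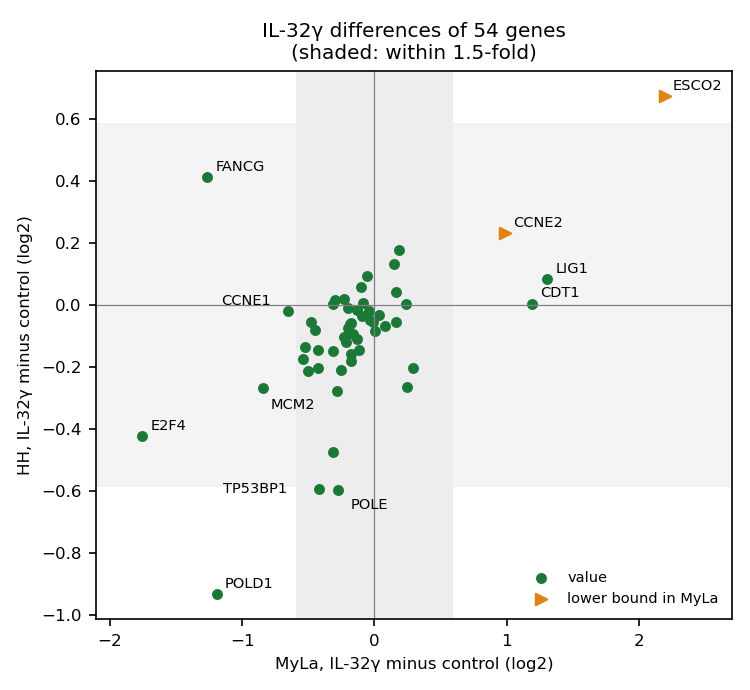
The IL-32γ minus control difference of each of the 54 genes in MyLa (x axis, log2) against that in HH (y axis, log2), with the bands within 1.5-fold shaded and triangles for genes whose MyLa difference is a lower bound. POLD1 lies outside the bands at the lower left and ESCO2 at the upper right, and most genes lie near 0 in both lines.

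Among the other pathway genes, 7 of 148 measured in MyLa were higher by 1.5-fold with IL-32γ (4.73%, against 7.77% of all measured genes) and 9 lower (6.08%, against 7.65%). PAXX, an end-joining factor, read 8.33 with IL-32γ and 6.62 in the control, a difference of 1.71. CDK2, the kinase that cyclin E activates, read 7.78 with IL-32γ and 6.73 in the control, a difference of 1.05. PARP1, a sensor of strand breaks, differed by -0.96, and ERCC2, a helicase of excision repair, by -0.84. In HH 2 of 152 were higher (1.32%, against 1.14% of all measured genes) and 3 lower (1.97%, against 4.46%). The ubiquitin ligase RNF8 stood at -0.69, the recombination gene XRCC3 at -0.61, the clamp unloader ATAD5 at 0.60, and the checkpoint adaptor CLSPN at 0.59.

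The probe sets of a gene mostly gave the same sign of the difference between lines. Of the 32 genes with 2 or more measured probe sets, 28 had the same sign of the MyLa minus HH difference in all of them, 26 lower and 2 higher (GINS3 and TP53BP1), and RFC3, RFC5, TYMS and FEN1 had both signs. Within a gene the differences between lines spanned a median of 0.37, the IL-32γ differences 0.49 in MyLa and 0.28 in HH. A probe set counted as measured here if it reached 5 on at least 2 arrays, of either line. Those under 5 on both arrays of a line entered its IL-32γ spans as 0, among them probe sets of GINS2, ATM and ATR in MyLa. Of the 4 genes past 1.5-fold in MyLa with a second probe set so measured, 2 (CDT1 and E2F4) passed with every probe set, and in HH 0 of 2 did. The second CCNE2 probe set was under 5 in MyLa and could not pass there.

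**Figure D5:**
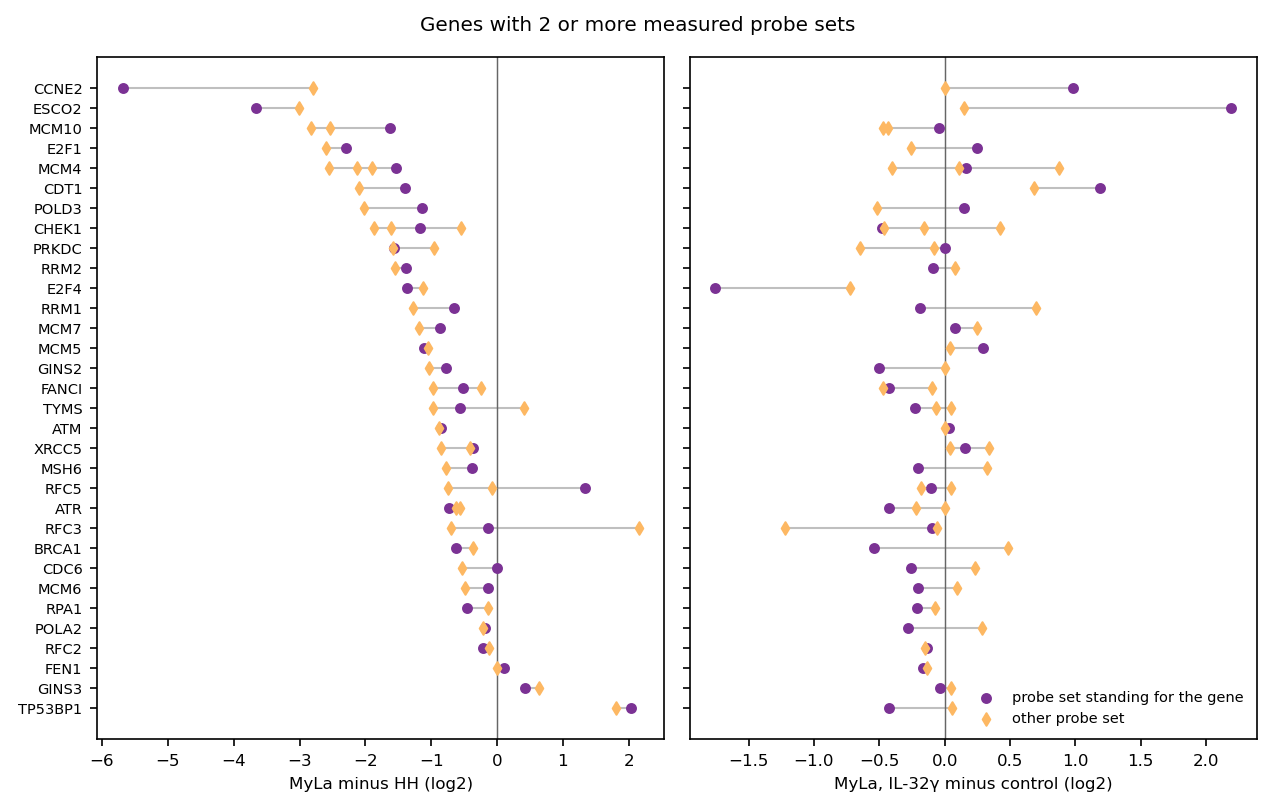
MyLa minus HH (left x axis, log2) and IL-32γ minus control in MyLa (right x axis, log2) for every measured probe set of the 32 genes with 2 or more, with circles for the probe set that stands for the gene and diamonds for the others. On the left most genes keep to 1 side of 0, with RFC3, RFC5, TYMS and FEN1 on both sides, and on the right ESCO2 spans 0.15 to 2.19.

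Several genes had probe sets 1 log2 unit or more apart. RFC3, of the clamp loader, differed between the lines by -0.14 on its representative probe set, which read 12.67 and 12.76 on the MyLa IL-32γ and control arrays, against 12.83 and 12.87 on those of HH. Another of its probe sets read 6.54 and 7.76 in MyLa, against 3.86 and 4.27 in HH, and stood at 2.15 with the values under 5 raised to 5. The same probe set was at -1.22 for IL-32γ in MyLa. TYMS spanned -0.97 to 0.41 between the lines, CHEK1 -1.88 to -0.55, MCM10 -2.82 to -1.62 and MCM4 -2.55 to -1.53, so the last 3 were lower in MyLa on every measured probe set. For IL-32γ, BRCA1 spanned -0.54 to 0.49 in MyLa, and MCM4 spanned -0.40 to 0.88 in MyLa and 0.04 to 1.84 in HH. The MCM4 probe set with the largest of these differences read 5.88 with IL-32γ and 4.30 in the control in MyLa, and 8.90 with IL-32γ and 7.07 in the control in HH. PRKDC spanned -0.08 to 1.34 in HH.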

How the data were processed

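The authors deposited log2 expression values per probe set after GCRMA, per the submitters' processing notes. Neither the version nor a joint normalisation of the 4 arrays is stated there. The log2 scale was read from the values, 2.13 to 16.0. The number of arrays limits the precision. Symbols came from the array annotation (41097 probe sets with 1 symbol, 1801 with several, 11777 not listed), and 41043 were updated through Entrez identifiers with a RefSeq table of GRCh38.p14, which also gave chromosomes. The probe set with the highest mean stood for a gene. Values under 5 were raised to 5 before differences and folds, not before fits, and a gene under 5 on 1 side has a bound ("at least"). Genes at 5 or more on 2 arrays were fitted in limma 3.58.1 (R 4.3.3): MyLa minus HH without a block (2 residual degrees of freedom), and IL-32γ with the line as a block. Tests were two-sided with Benjamini-Hochberg adjustment over all genes. Code was tested on simulated data. Tables were handled with Python 3.11.15 and pandas 2.3.3.

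The genes and lists were chosen with earlier results of these data known. Values on every array were given for genes past 1.5-fold with IL-32γ (6 per direction and line), up to 8 per direction between lines, genes under 5 on some arrays, and genes whose probe sets lay 1 or more apart, with up to 3 examples per role and up to 4 other pathway genes per comparison. A few others, PCNA, CDC6, MCM10, RRM2 and PRKDC among them, were given with values after these were seen. Alternatives were other floors, normalisations, probe set choices, thresholds, blocks and omitted arrays.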

Additional observations from a re-analysis of the deposited data

Results flagged for a closer look

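Of the 3 measured probe sets of PRKDC, 1 that does not stand for the gene went opposite ways in the lines: the IL-32γ minus control difference was -0.65 in MyLa, at 5.81 with IL-32γ and 6.46 in the control, and 1.34 in HH, at 7.76 with IL-32γ and 6.42 in the control. Each line had 1 array per condition, and the difference was not tested. The probe set that stands for PRKDC was at 0.00 in MyLa and -0.08 in HH.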

How the results depend on the processing

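Genes higher with IL-32γ in MyLa numbered 4, and 2 with the mean of all probe sets. Genes lower there numbered 5, and 13 at a 1.3-fold and 3 at a 2-fold threshold. In HH, 3 were lower, but 1 after quantile normalisation, 1 after median centring, 5 at 1.3-fold and 0 at 2-fold. In HH, 1 was higher, but 0 with the mean or the median over probe sets, 2 at 1.3-fold and 0 at 2-fold. Between the lines, 17 were lower and 2 higher in MyLa, but 11 and 1 with no floor or filter, and 28 and 4 with no minimum fold. With no floor or filter, 19775 genes were tested, against 11010. The variance that limma used also differed (square root of its median 0.0731, against 0.153), and the part of each was not tested. With the mean of probe sets 1 was higher. Leaving out each array gave 9 to 18 lower and 1 to 2 higher, with 9 lower without the HH IL-32γ array; the line then held by 1 array was assumed to vary like the other. Other than for the minimum fold and the thresholds, the cause of these changes was not tested. The IL-32γ fit across lines called 0 genes under each alternative run. Over alternatives, the named genes kept their side of the threshold in 66 recomputed IL-32γ values in MyLa and lost it in 1, kept it in 23 and lost it in 8 in HH, kept it in 234 and lost it in 30 differences between lines, and no direction reversed. Many of these differences could not change. Another floor leaves a difference above it as it was, and the choice of probe set does not alter a gene with 1. The counts are therefore no measure of how stable the results are. These counts leave out ESCO2 and CCNE2 in MyLa with the mean of probe sets, and CCNE2 at a floor of 6, which lost their call because they were then not measured, and CDT1, MCM2, POLE and ORC6, which had no measured probe set without the _x_at and _s_at ones. Raising values to 5 before the fit was chosen after seeing the data. With the treatment as a block, 18 were lower and 2 higher in MyLa.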
